A study of Mus musculus with 12 samples.

Results

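The first step at which surface E-cadherin appears on mouse granulocyte-monocyte progenitors was examined by comparing Pro-BMPs with DN-GMPs, 2 of the 4 populations whose RNA was sequenced. Members were the 3 Pro-BMP and 3 DN-GMP libraries, 6 of the 12 libraries of the series, and all 14560 listed genes were tested. Pro-BMPs were sorted as CDH1+ and FceRIa-, and DN-GMPs as CDH1- and FceRIa-, where CDH1 is E-cadherin and FceRIa the alpha chain of the high-affinity IgE receptor. Both gates required c-Kit+, CD34+ and CD16/32+ cells that were Sca1-, CD11b-, Gr1-, Ter119-, CD3- and B220-, from bone marrow of C57BL/6 mice with no treatment or engineered allele named. The other populations, used here only as a description, were Pre-BMPs (CDH1- by label, FceRIa+, otherwise the same gate) and basophils (c-Kit-, CD49b+, FceRIa+). The series describes 3 mice, but the labels do not tie a library number to a mouse, so p-values measure the spread between libraries. In the series title E-cadherin is a mark of progenitors that commit early to becoming basophils or mast cells.

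Granulocyte-monocyte progenitors of the bone marrow give rise to neutrophils, monocytes, eosinophils, basophils and mast cells. E-cadherin, encoded by Cdh1, is a calcium-dependent adhesion receptor of epithelia whose cytoplasmic tail binds catenins, which join it to actin. Basophils and mast cells carry the IgE receptor, store histamine and proteases in granules, and make leukotrienes and cytokines, with GATA2 among the transcription factors they need. IRF8 is known from the monocyte and dendritic cell side, and its roles in other lineages are not covered here.

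Reads on listed genes totalled 34195323 to 42502405 in Pro-BMP libraries, against 29762981 to 36939443 in DN-GMP libraries. Levels are CPM, reads per 1000000 of the deposited scaled library size, and where a library shows 0 reads, up to 3 are allowed for, which is 0.0512 to 0.0745 CPM and covers counting error only. Where a population had 0 reads throughout, a fold is given as a bound against that limit of 3 reads in each library. Log2 differences are Pro-BMPs minus DN-GMPs, with a standard error (SE), and genes were called, or said to have risen or fallen, at a limma adjusted p under 0.05 over all genes, in a fit whose spread is shared by all 12 libraries. By that rule 291 genes (2.00%) were higher and 78 (0.536%) lower in Pro-BMPs. In each of these 369 genes the groups did not overlap, which was also so, in the higher and lower direction, for 9.81% and 8.91% of all genes. The median log2 difference over all genes was 0.02. At an unadjusted p under 0.05, 1314 of the 14560 genes were higher and 703 lower. Counts of calls in gene lists stand beside the 2.00% and 0.536% of all genes. Of the called genes, 231 rises and 45 falls were of at least 1 on the log2 scale. Counts depended on how the spread was taken: 155 rises and 106 falls were called with voom weights, and 153 rises and 75 falls with the 2 populations fitted alone. Voom weights each value by the precision of its read count, in a limma fit of the same 12 libraries without a trend of the spread across the mean. All 3 fits called 89 of the rises and 39 of the falls. In bulk RNA, fewer cells that express a gene and less RNA per cell cannot be told apart.

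**Figure D1:**
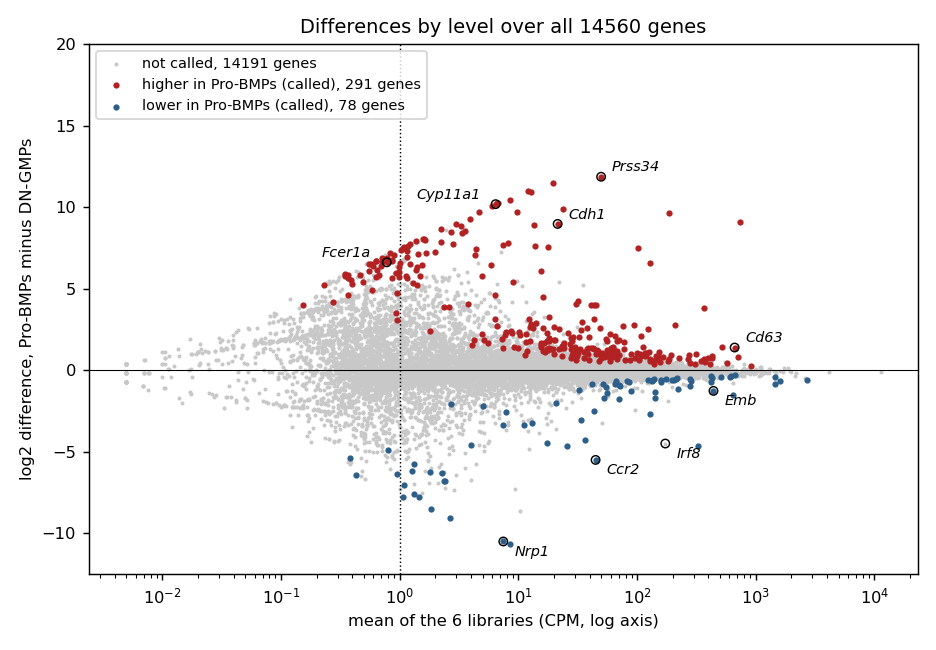
Log2 difference, Pro-BMPs minus DN-GMPs (vertical axis), against the mean level of the 6 libraries in CPM (horizontal log axis, means under 0.005 drawn at 0.005) for 14560 genes, with 291 called higher and 78 called lower. Genes left of the dotted line, under 1 CPM, scatter widely, and the called rises reach larger differences than the called falls.

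Cdh1, whose product was the sort marker, serves as a check of the labels of Pro-BMPs and DN-GMPs only. Cdh1 (ENSMUSG00000000303, GENCODE M21 on GRCm38 chromosome 8, 106603351 to 106670246, plus strand) stood at 56.0, 33.6 and 38.8 CPM in Pro-BMPs, against 0.0212, 0.103 and 0.149 CPM in DN-GMPs. No Pro-BMP library came near a DN-GMP library, and the log2 difference was 8.97 (SE 0.49, limma adjusted p = 1.55e-06). Later levels of Cdh1 were 157, 105 and 178 CPM in Pre-BMPs and 1201, 1064 and 884 CPM in basophils. Pre-BMPs are CDH1- by label, so the Cdh1 RNA level did not follow the CDH1 label there. Ms4a2, the beta chain of the IgE receptor, was at 209.9, 172 and 223 CPM in Pro-BMPs, against 2.17, 0.741 and 0.844 CPM in DN-GMPs, and it rose by 7.49 on the log2 scale (SE 0.31, adjusted p = 1.19e-07) in cells gated as FceRIa-. Prss34, a basophil serine protease, was at 146, 53.1 and 99.4 CPM in Pro-BMPs, against 0, 0.103 and 0 CPM in DN-GMPs. Pro-BMP replicate 1 was the highest and replicate 2 the lowest, and 1 DN-GMP library held the few reads of that group (adjusted p = 2.98e-06). Gata2 was at 207, 95.6 and 190.2 CPM in Pro-BMPs, against 19.7, 27.8 and 22.2 CPM in DN-GMPs, with a log2 difference of 2.76 (SE 0.26, adjusted p = 0.000111). Irf8 was at 10.1, 13.2 and 23.2 CPM in Pro-BMPs, against 357, 345 and 289.9 CPM in DN-GMPs. The groups did not overlap, but the log2 difference of -4.50 (SE 1.41, adjusted p = 0.152) was not called, as described further on with other such genes. The calls of Cdh1 and Prss34 were lost with voom weights (adjusted p from 0.114 to 0.416).

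The shared gate was visible in both populations. Kit, whose ligand is stem cell factor, was at 314, 289.6 and 304 CPM in Pro-BMPs, against 216, 335 and 231 CPM in DN-GMPs, and Cd34 at 340.4, 298 and 299 CPM in Pro-BMPs, against 494, 506 and 413 CPM in DN-GMPs. Fcgr3, which encodes the CD16 Fc receptor, was at 339.5, 341 and 379 CPM in Pro-BMPs, against 288, 319 and 271 CPM in DN-GMPs. None of the 3 was called (adjusted p = 0.82 for Kit, 0.405 for Cd34, 0.158 for Fcgr3). The groups did not overlap for Cd34, lower in Pro-BMPs, or for Fcgr3, higher in Pro-BMPs. Cd34 was called lower with voom weights (adjusted p = 0.0389), but not with the 2 populations fitted alone (adjusted p = 0.0509). The granule enzymes of early granulocyte progenitors were abundant in both as well, Mpo at 10775, 11377 and 10332 CPM in Pro-BMPs, against 11479, 13035 and 10816 CPM in DN-GMPs, and Elane at 3771, 4398 and 3795 CPM in Pro-BMPs, against 4403, 4425 and 3950.4 CPM in DN-GMPs, and neither was called (adjusted p = 0.76 for Mpo, 0.915 for Elane).

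Among 87 hematopoietic transcription factors 8 rose (9.20%, against 2.00% of all genes) and 0 fell, with a median log2 difference of 0.29. With voom weights 9 were higher and 3 lower. Beside Gata2 the 8 were Gata1, Klf1, Gfi1b, Ikzf2, Lmo4, Sox6 and Zfpm1. Klf1, the erythroid Kruppel-like factor, was at 17.9, 15.1 and 26.0 CPM in Pro-BMPs, against 0, 0.0823 and 0 CPM in DN-GMPs (adjusted p = 1.24e-05). Gata1 was at 43.5, 58.8 and 63.9 CPM in Pro-BMPs, against 0.467, 8.48 and 8.82 CPM in DN-GMPs (adjusted p = 0.0293), so the DN-GMP libraries themselves spanned a wide range. Cebpa, a factor of granulocyte and monocyte progenitors, was at 40.8, 28.1 and 30.0 CPM in Pro-BMPs, against 28.1, 38.4 and 23.7 CPM in DN-GMPs, and was not called (adjusted p = 0.842). The call of Gata1 was lost with the 2 populations fitted alone (adjusted p = 0.168). Gata1 lost its call without Pro 1, Pro 2 or Pro 3 (adjusted p up to 0.103), where Pro 1 stands for Pro-BMP replicate 1 and DN 1 for DN-GMP replicate 1.

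The promoters of 3 genes that rose and 1 that fell, chosen after their values were seen, are shown with the GATA motif letters. Each promoter shown holds the motif, and none that lacks it is shown. These examples therefore do not show how common the motif is among called genes. Whether GATA factors act on these genes was not tested. Sequences run from 250 bases before to 50 after the start site and come from RefSeq (GRCm38.p6). Capitals mark AGATAA or TGATAA on either strand, so TTATCT is the reverse complement of the first.
Prss34, chr17:25298144-25298443, plus strand: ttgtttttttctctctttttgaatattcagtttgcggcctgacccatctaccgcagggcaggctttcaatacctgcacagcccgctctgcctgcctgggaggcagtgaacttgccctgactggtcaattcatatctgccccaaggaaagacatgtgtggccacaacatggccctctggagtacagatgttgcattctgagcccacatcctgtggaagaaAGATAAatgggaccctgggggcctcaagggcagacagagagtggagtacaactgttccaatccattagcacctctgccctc
Ms4a2, chr19:11623670-11623969, minus strand: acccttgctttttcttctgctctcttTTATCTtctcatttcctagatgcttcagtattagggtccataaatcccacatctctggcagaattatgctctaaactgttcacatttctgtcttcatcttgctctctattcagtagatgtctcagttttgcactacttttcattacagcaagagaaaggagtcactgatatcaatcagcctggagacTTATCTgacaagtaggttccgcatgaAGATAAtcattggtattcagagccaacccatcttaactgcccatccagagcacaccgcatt
Il5ra, chr6:106748988-106749287, minus strand: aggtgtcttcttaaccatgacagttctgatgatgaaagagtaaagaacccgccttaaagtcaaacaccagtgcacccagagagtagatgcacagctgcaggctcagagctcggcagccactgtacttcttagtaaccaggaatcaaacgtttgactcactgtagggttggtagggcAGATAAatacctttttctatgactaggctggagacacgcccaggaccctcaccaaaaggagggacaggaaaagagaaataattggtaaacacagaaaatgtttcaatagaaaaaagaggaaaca
Ccr2, chr9:124101933-124102232, plus strand: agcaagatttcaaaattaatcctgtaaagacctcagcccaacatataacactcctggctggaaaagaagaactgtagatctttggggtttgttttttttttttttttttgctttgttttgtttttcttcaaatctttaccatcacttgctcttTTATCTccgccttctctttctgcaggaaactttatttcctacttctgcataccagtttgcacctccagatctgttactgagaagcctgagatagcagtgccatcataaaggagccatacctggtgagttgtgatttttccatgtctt
Counting the first transcribed base as 0, the motif starts at -31 in Prss34, at -224, -37 and -11 in Ms4a2, at -74 in Il5ra, and at -97 in Ccr2, a chemokine receptor gene that fell. The letters occur in 19.0% of the 27025 gene promoters of this length in the RefSeq table (5122 of them), and in 10.4% of the 9782 promoters that belong to genes tested here (1017 of them). Only 221 of the 291 genes that rose (76.0%) and 54 of the 78 that fell (69.2%) had a promoter there, under the 80% set for such a check, so a comparison of motif shares between called genes is void.

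No gene of the cadherin family was called apart from Cdh1, whose product was the sort marker. Of 27 measured cadherin, protocadherin and catenin genes, 1, Cdh1, was called higher (3.70%, against 2.00% of all genes) and 0 lower. As that call is of the sort marker, the count is no result about the family. The median log2 difference was 0.15 (2 higher and 1 lower at an unadjusted p under 0.05). Ctnnb1, which encodes beta-catenin, stood at 207, 216 and 195 CPM in Pro-BMPs, against 183, 192 and 181 CPM in DN-GMPs. Ctnna1, alpha-catenin, which links the complex to actin, was at 25.8, 45.3 and 28.6 CPM in Pro-BMPs, against 40.8, 37.2 and 42.0 CPM in DN-GMPs. The groups lay close together for Ctnnb1 without overlapping, and overlapped for Ctnna1. Jup (plakoglobin), a catenin that can replace beta-catenin, was at 5.99, 2.80 and 5.47 CPM in Pro-BMPs, against 6.18, 7.64 and 3.38 CPM in DN-GMPs. None of the 3 was called (adjusted p = 0.531 for Ctnnb1, 0.595 for Ctnna1 and 0.864 for Jup), and the log2 difference of Ctnnb1 was 0.15 (SE 0.09). Claudin, gap junction and polarity genes, other parts of epithelial junctions, had 0 called in either direction of 27 measured with limma (0 with voom weights, 1 higher and 0 lower at an unadjusted p under 0.05), and their median log2 difference was 0.19.

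Integrins changed in 2 of 30 measured genes, both higher. Itga2b, the alpha-IIb chain known from platelets, was at 146, 103 and 147 CPM in Pro-BMPs, against 19.2, 32.3 and 12.9 CPM in DN-GMPs, and rose by 2.70 on the log2 scale (SE 0.29, adjusted p = 0.000221). Itgb7, a beta chain that pairs with alpha-4 or alpha-E, was at 26.3, 18.0 and 38.9 CPM in Pro-BMPs, against 4.99, 3.29 and 5.31 CPM in DN-GMPs, a rise of 2.57 (SE 0.26, adjusted p = 0.000145). Of their partners, Itga4 was at 139, 105 and 122 CPM in Pro-BMPs, against 72.2, 84.3 and 57.7 CPM in DN-GMPs, and was not called (adjusted p = 0.114), and Itgae, whose dimer with beta-7 binds E-cadherin, was at 1.22, 3.17 and 2.48 CPM in Pro-BMPs, against 0.891, 0.947 and 0.472 CPM in DN-GMPs, and was not called (adjusted p = 0.713). Itgb3, the beta partner of alpha-IIb, was at 12.9, 2.89 and 2.15 CPM in Pro-BMPs, against 15.7, 5.99 and 9.19 CPM in DN-GMPs, and was not called either (adjusted p = 0.484).

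Tetraspanins, which organise adhesion receptors in the membrane, had 3 of 21 members higher and 0 lower, with a median log2 difference of 0.45. Cd63, a tetraspanin of granule membranes, was at 1005, 950.1 and 928 CPM in Pro-BMPs, against 398, 364 and 340.1 CPM in DN-GMPs, and rose by 1.39 (SE 0.08, adjusted p = 2.76e-06). Cd82 and Cd9 rose by 1.42 (SE 0.19, adjusted p = 0.00179) and 0.96 (SE 0.16, adjusted p = 0.00713). All 3 lay higher in every Pro-BMP library than in any DN-GMP library. The Cd9 call was lost with the 2 populations fitted alone (adjusted p = 0.0772).

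Immunoglobulin-type, mucin and selectin genes moved both ways, 2 higher and 3 lower of 48. Icam4, an erythroid adhesion molecule, was at 23.9, 17.1 and 25.6 CPM in Pro-BMPs, against 1.38, 5.19 and 3.78 CPM in DN-GMPs (adjusted p = 0.0026), and Siglecf, a sialic acid-binding lectin of eosinophils, at 106, 100.4 and 117 CPM in Pro-BMPs, against 18.9, 43.9 and 33.7 CPM in DN-GMPs (adjusted p = 0.00199). Emb (embigin), which escorts monocarboxylate transporters to the membrane, fell to 243, 236 and 299.7 CPM in Pro-BMPs, against 599.8, 639 and 627 CPM in DN-GMPs, a difference of -1.27 (SE 0.12, adjusted p = 0.000128). Selplg, the P-selectin ligand, was at 186, 151 and 175 CPM in Pro-BMPs, against 257, 281 and 218 CPM in DN-GMPs, and fell by 0.56 on the log2 scale (SE 0.11, adjusted p = 0.0236). Among 25 semaphorin, plexin, ephrin and slit genes Nrp1, a semaphorin co-receptor, was the 1 called: it had 0 reads in every Pro-BMP library, against 12.6, 10.8 and 21.5 CPM in DN-GMPs, at least 251-fold lower (adjusted p = 0.019). The call of Selplg was lost with voom weights (adjusted p = 0.0667), and those of Icam4 and Selplg with the 2 populations fitted alone (adjusted p from 0.0561 to 0.112). Selplg lost its call without Pro 2, Pro 3, DN 1 or DN 2 (adjusted p up to 0.0837) and Nrp1 without Pro 1, Pro 2, Pro 3, DN 1 or DN 3 (up to 0.07).

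Matrix and protease genes had 3 of 55 higher and 0 lower, Adam8, Adamts6 and Mmp27, and 0 of these 3 calls were made with voom weights. Actin and small GTPase regulators had 2 higher and 3 lower of 112 (0 and 1 with voom weights), and the share of rises, 1.79%, was under the 2.00% of all genes. Outside the lists, Tpm4 (tropomyosin 4), which stabilises actin filaments, was at 2.89, 0.884 and 2.92 CPM in Pro-BMPs, against 44.3, 52.2 and 50.9 CPM in DN-GMPs, a fall of 4.64 on the log2 scale (SE 0.45, adjusted p = 0.000128). Shroom2 and Perp were named after their values were seen. Shroom2, an actin-binding protein of epithelial junctions, was at 9.60, 4.42 and 3.96 CPM in Pro-BMPs, against 0 reads in every DN-GMP library, at least 89.9-fold higher (adjusted p = 0.000535), and had at most 0.0191 CPM in any Pre-BMP or basophil library. Perp, a membrane protein of desmosomes, was at 19.1, 23.9 and 23.5 CPM in Pro-BMPs, against 1.80, 2.41 and 3.50 CPM in DN-GMPs, and rose by 3.15 (SE 0.26, adjusted p = 3.5e-05). Tpm4, Shroom2 and Perp were called in each of the 3 fits and with each library left out.

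**Figure D2:**
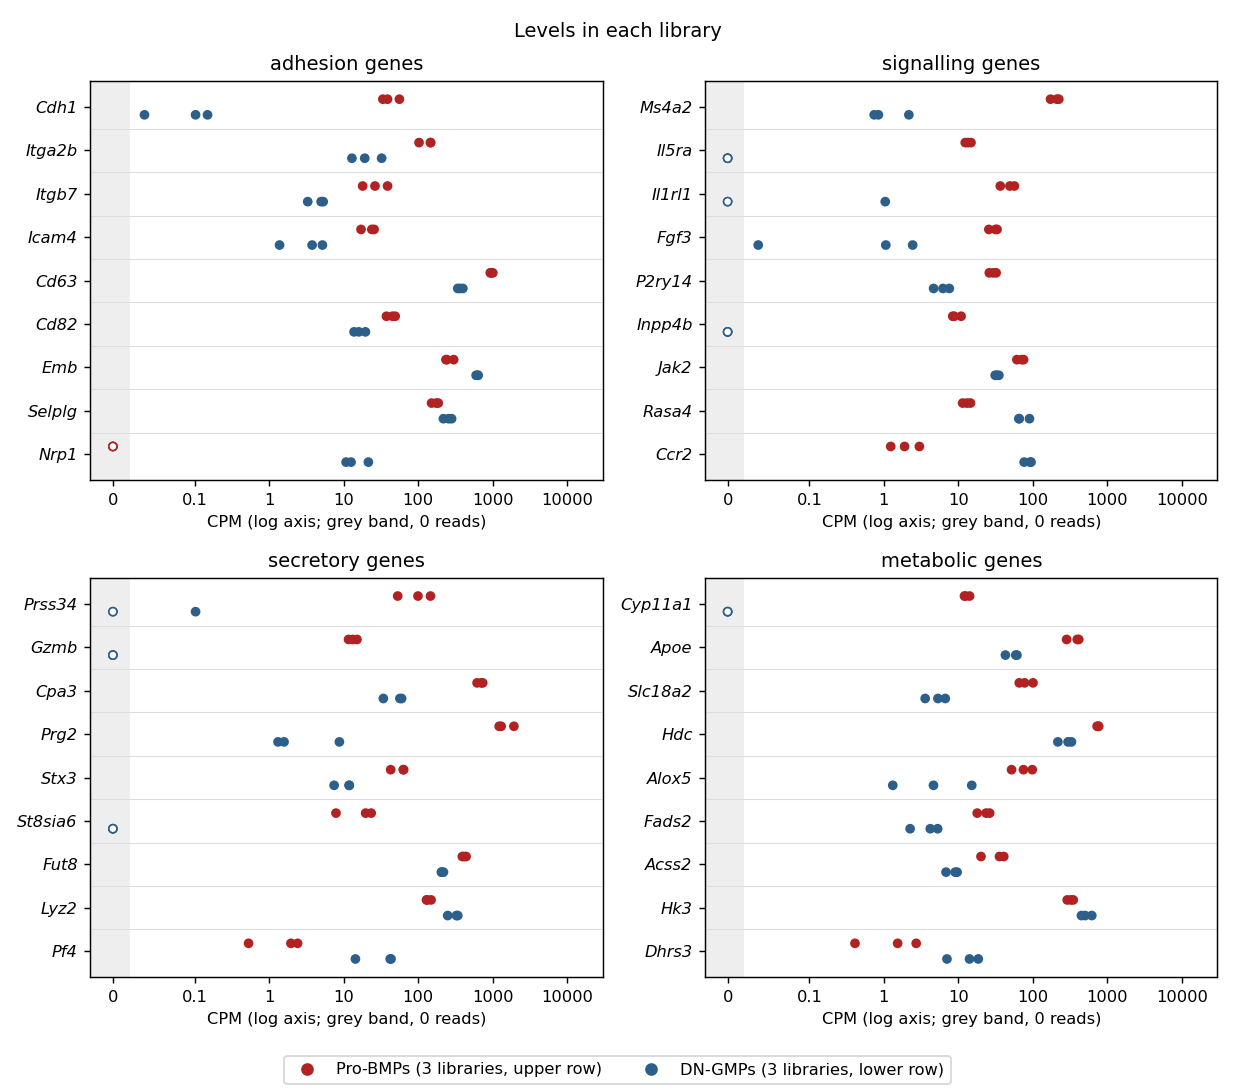
Level in CPM (horizontal log axes, open points in the grey band at 0 reads) of 36 genes in each of the 3 Pro-BMP libraries (red, upper row of each gene) and the 3 DN-GMP libraries (blue, lower row), in adhesion, signalling, secretory and metabolic panels. Cdh1 has the widest gap of the adhesion panel among genes with reads in both groups, Itga2b, Itgb7 and Cd63 differ by less, and Nrp1 and Ccr2 are lower in Pro-BMPs.

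Receptors for cytokines rose in 5 of 63 measured genes (7.94%, against 2.00% of all genes) and fell in 0. Their median log2 difference was 0.17, while 3 were higher and 3 lower with voom weights. Il5ra, the interleukin 5 receptor chain of eosinophils and basophils, was at 12.4, 14.8 and 13.4 CPM in Pro-BMPs, against 0 reads in every DN-GMP library, at least 203-fold higher (adjusted p = 0.00402). Il1rl1, the interleukin 33 receptor, was at 56.5, 36.5 and 49.2 CPM in Pro-BMPs, against 0, 0 and 1.04 CPM in DN-GMPs, so that 1 DN-GMP library held all of that group's reads (log2 difference 9.90, SE 1.34, adjusted p = 0.00176). Il17rb, Il2rg and Csf2rb2 were called higher too. The chains of related receptors were not called: Il3ra, the interleukin 3 receptor chain, was at 19.5, 19.5 and 24.8 CPM in Pro-BMPs, against 19.2, 15.8 and 12.4 CPM in DN-GMPs (adjusted p = 0.389), and Csf2rb, the common beta chain of the interleukin 3, interleukin 5 and GM-CSF receptors, at 122, 114 and 184 CPM in Pro-BMPs, against 92.0, 147 and 87.1 CPM in DN-GMPs (adjusted p = 0.568). Igf1r, the 1 called of 16 receptor tyrosine kinases, was at 66.6, 60.1 and 61.1 CPM in Pro-BMPs, against 32.8, 39.9 and 39.7 CPM in DN-GMPs, a rise of 0.74 (SE 0.12, adjusted p = 0.00484). Jak2, the kinase bound by the common beta chain, was at 70.8, 60.9 and 75.1 CPM in Pro-BMPs, against 32.5, 31.2 and 35.0 CPM in DN-GMPs, and Jak2 and Stat2 were the 2 called, both higher, of 37 JAK, STAT, SOCS and PIM genes (1 with voom weights; adjusted p = 0.000844 for Jak2, 0.0182 for Stat2). The calls of Il2rg, Csf2rb2 and Stat2 were lost with voom weights (adjusted p from 0.0532 to 0.243), and those of Il17rb, Il2rg, Csf2rb2, Igf1r and Stat2 with the 2 populations fitted alone (adjusted p from 0.0751 to 0.178). Il17rb lost its call without Pro 1, Pro 2 or Pro 3 (adjusted p up to 0.0772), Il2rg without Pro 1, Pro 2, Pro 3, DN 1 or DN 3 (up to 0.13), Csf2rb2 without Pro 2, Pro 3, DN 1 or DN 3 (up to 0.104) and Stat2 without Pro 1, Pro 2 or DN 3 (up to 0.0755).

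The median log2 difference of 37 genes of IgE receptor proximal signalling was 0.04. Of these 37, 6 rose (16.2%, against 2.00% of all genes) and 0 fell (2 and 0 with voom weights). The 6 included the receptor chains Ms4a2 and Fcer1a, the kinases Fyn and Tec, and the lipid kinase Pik3cg. Fcer1a was at 0.419, 0.862 and 3.40 CPM in Pro-BMPs, against 0 reads in every DN-GMP library, at least 23.4-fold higher (adjusted p = 4.52e-05), and 2 of its 3 Pro-BMP libraries lay under 1 CPM. The signal chain Fcer1g was at 74.7, 72.6 and 108 CPM in Pro-BMPs, against 139, 117 and 111 CPM in DN-GMPs, a log2 difference of -0.54 that was not called (adjusted p = 0.0944). Of the first kinases in the pathway, Lyn was at 48.2, 44.1 and 68.3 CPM in Pro-BMPs, against 62.7, 66.9 and 69.6 CPM in DN-GMPs. Syk was at 130.1, 126 and 138 CPM in Pro-BMPs, against 108, 145 and 97.1 CPM in DN-GMPs, and neither was called (adjusted p = 0.486 for Lyn, 0.686 for Syk). The calls of Fcer1a, Fyn and Pik3cg were lost with voom weights (adjusted p from 0.0612 to 0.196), and those of Fyn, Tec and Pik3cg with the 2 populations fitted alone (adjusted p from 0.112 to 0.152). Fyn lost its call without Pro 1 (adjusted p = 0.0529), Tec without Pro 3 (0.0528) and Pik3cg without Pro 1, Pro 2, Pro 3, DN 1 or DN 3 (up to 0.15).

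Of 102 chemokine and other G protein-coupled receptors 5 rose and 1 fell (3 and 2 with voom weights). P2ry14, which binds UDP-sugars, was at 26.0, 29.2 and 32.1 CPM in Pro-BMPs, against 4.65, 7.56 and 6.21 CPM in DN-GMPs, and rose by 2.27 (SE 0.22, adjusted p = 0.000115). Ltb4r1, a leukotriene B4 receptor, and Adgrg1 (GPR56) rose by 0.87 (adjusted p = 0.00311) and 0.72 (adjusted p = 0.000754). Gpr34 was at 2.33, 2.24 and 2.63 CPM in Pro-BMPs, against 0, 0.124 and 0 CPM in DN-GMPs (adjusted p = 0.000796). Ccr2, which draws monocytes out of the marrow, was at 1.24, 3.00 and 1.90 CPM in Pro-BMPs, against 91.8, 94.3 and 76.4 CPM in DN-GMPs, and fell by 5.50 on the log2 scale (SE 0.31, adjusted p = 1.96e-06). Its later levels were 6.16, 5.46 and 6.14 CPM in Pre-BMPs and 397, 288 and 221 CPM in basophils. Behind the receptors, Plcb2 (phospholipase C beta 2) was at 159.9, 151 and 153 CPM in Pro-BMPs, against 78.5, 83.7 and 81.2 CPM in DN-GMPs, a rise of 0.93 (SE 0.10, adjusted p = 0.000227). The inhibitory G protein alpha subunits moved in opposite directions: Gnai3 rose by 0.66 (adjusted p = 0.013) and Gnai2 fell by 0.29 (adjusted p = 0.00481). The call of Gpr34 was lost with voom weights (adjusted p = 0.119), and those of Gpr34 and Gnai2 with the 2 populations fitted alone (adjusted p from 0.0548 to 0.0828). Gnai3 lost its call without Pro 1 (adjusted p = 0.0524).

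Phosphoinositide and Ras control genes changed in single members. Inpp4b (ENSMUSG00000037940, GENCODE M21 on GRCm38 chromosome 8, 81342556 to 82127914, plus strand), a phosphatase that removes a phosphate from a lipid made downstream of PI3-kinase, was at 8.40, 10.9 and 8.80 CPM in Pro-BMPs, against 0 reads in every DN-GMP library, at least 140.4-fold higher (adjusted p = 3.72e-08), with the 3 Pro-BMP libraries close together. Inpp5d (SHIP1), which makes the lipid that INPP4B acts on, was at 175, 163 and 116 CPM in Pro-BMPs, against 96.7, 139 and 149.6 CPM in DN-GMPs, and was not called (adjusted p = 0.665). Of 115 Ras and MAP kinase regulators 0 rose and 1 fell (1 and 1 with voom weights): Rasa4, a calcium-dependent Ras inactivator, was at 11.4, 13.0 and 14.5 CPM in Pro-BMPs, against 90.0, 65.6 and 64.9 CPM in DN-GMPs, a fall of 2.49 (SE 0.26, adjusted p = 0.000227). The survival gene Bcl2, named after its values were seen, was at 24.5, 29.2 and 39.6 CPM in Pro-BMPs, against 78.5, 65.9 and 95.9 CPM in DN-GMPs, a fall of 1.37 (SE 0.21, adjusted p = 0.00429). Among 81 ion channel genes 5 rose and 1 fell (1 higher and 1 lower with voom weights). The ATP-gated channel P2rx4 was at 108, 66.1 and 96.9 CPM in Pro-BMPs, against 37.5, 36.5 and 30.9 CPM in DN-GMPs (adjusted p = 0.00132). The potassium channel Kcnj5 had 0 reads in every Pro-BMP library, against 2.87, 4.65 and 3.60 CPM in DN-GMPs, at least 62.2-fold lower (adjusted p = 0.000681). Wnt, Notch and Hedgehog genes had 0 higher and 2 lower of 51 (3.92% lower, against 0.536% of all genes). TGF-beta, BMP and activin genes had 1 higher and 0 lower of 43 (0 with voom weights), and the 2.33% higher was near the 2.00% of all genes.

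Of 39 lists of adhesion, signalling, secretory and metabolic genes, granule proteins had the highest share of calls. Of 46 measured, 13 were higher (28.3%, against 2.00% of all genes) and 1 lower (2.17%, against 0.536%). The lists were chosen with earlier results of these data known, so this rank is a description only. With voom weights granule proteins had 7 higher and 2 lower, a share close to that of serpins and other protease inhibitors, which had 2 higher and 2 lower of 21. Cpa3, the granule carboxypeptidase of basophils and mast cells, was at 704, 618 and 735 CPM in Pro-BMPs, against 56.9, 34.1 and 60.1 CPM in DN-GMPs, and rose by 3.81 (SE 0.17, adjusted p = 2.95e-07). Gzmb (ENSMUSG00000015437, GENCODE M21 on GRCm38 chromosome 14, 56258838 to 56262260, minus strand), the granule protease granzyme B, was at 15.1, 13.2 and 11.6 CPM in Pro-BMPs, against 0 reads in every DN-GMP library, at least 199.8-fold higher (adjusted p = 1.38e-08). Later levels of Gzmb were 223, 229 and 164 CPM in Pre-BMPs and 17.8, 19.3 and 22.8 CPM in basophils. Prg2, the major basic protein of eosinophils, was at 1223, 1302 and 1928 CPM in Pro-BMPs, against 1.32, 1.59 and 8.77 CPM in DN-GMPs, a rise of 9.10 (SE 0.58, adjusted p = 4.18e-06). Epx, eosinophil peroxidase, was at 279.5, 272 and 563 CPM in Pro-BMPs, against 0.127, 0.144 and 3.90 CPM in DN-GMPs (adjusted p = 0.000218), and replicate 3 was the highest library of each population. Mcpt8, a basophil protease, was at 102, 99.2 and 114 CPM in Pro-BMPs, against 39.6, 27.1 and 25.7 CPM in DN-GMPs, a rise of 1.80 (SE 0.15, adjusted p = 3.93e-05). Lyz2 (lysozyme) was at 149, 132 and 129 CPM in Pro-BMPs, against 340.2, 327 and 249 CPM in DN-GMPs, a fall of 1.15 (SE 0.16, adjusted p = 0.0026). Of the neutrophil granule proteases, Ctsg was at 1597, 1619.7 and 1482 CPM in Pro-BMPs, against 1682, 1633 and 1584 CPM in DN-GMPs. Prtn3 was at 1733, 2038 and 1821 CPM in Pro-BMPs, against 2448, 2412 and 2323 CPM in DN-GMPs, and neither was called (adjusted p = 0.859 for Ctsg, 0.516 for Prtn3), although Prtn3 was called with voom weights (adjusted p = 0.00427). The calls of Epx and Mcpt8 were lost with voom weights (adjusted p from 0.185 to 0.213).

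The eosinophil ribonucleases Ear1, Ear2 and Ear6 had 0 reads in every DN-GMP library. In Pro-BMPs Ear6 was at 12.9, 36.1 and 69.5 CPM (adjusted p = 4.03e-06), Ear2 at 18.2, 17.8 and 36.8 CPM (adjusted p = 3.08e-07) and Ear1 at 17.8, 11.7 and 46.7 CPM (adjusted p = 2.61e-06), and for each of them replicate 3 was the highest library. These genes have close copies: 57.4% of the 50-base windows of the longest Ear1 transcript and 41.5% of those of Ear2 also occur in transcripts of other genes in GENCODE M21, against 1.07% for Ear6. Their reads could be split or lost in counting, and the levels of Ear1 and Ear2 are uncertain for that reason. The calls of Ear1, Ear2 and Ear6 were lost with voom weights (adjusted p from 0.051 to 0.188).

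Golgi glycosyltransferases had 6 of 81 measured members higher and 1 lower (4 and 2 with voom weights). St8sia6 (ENSMUSG00000003418, GENCODE M21 on GRCm38 chromosome 2, 13651021 to 13794064, minus strand), which adds sialic acid to glycans that already carry it, was at 19.7, 7.89 and 23.4 CPM in Pro-BMPs, against 0 reads in every DN-GMP library, at least 255-fold higher (adjusted p = 1.19e-07). Fut8, the enzyme of core fucosylation, was at 415, 440.1 and 392 CPM in Pro-BMPs, against 206, 218 and 206 CPM in DN-GMPs, a rise of 0.98 (SE 0.10, adjusted p = 0.000135). Fut7, which completes selectin ligands, and Galnt6, which starts mucin-type O-glycans, rose by 1.19 (adjusted p = 0.0302) and 1.07 (adjusted p = 0.00864), while C1galt1c1, the chaperone of the enzyme that extends them, fell by 1.19 (adjusted p = 0.0302). St6gal1 was at 5.32, 0.151 and 4.61 CPM in Pro-BMPs, against 0 reads in every DN-GMP library (adjusted p = 0.00407), with Pro-BMP replicate 2 close to 0. The calls of Fut7 and St6gal1 were lost with voom weights (adjusted p from 0.0975 to 0.217), and those of Fut7, Galnt6, C1galt1c1 and St6gal1 with the 2 populations fitted alone (adjusted p from 0.0561 to 0.14). Fut7 lost its call without Pro 1, Pro 3, DN 1 or DN 3 (adjusted p up to 0.123) and C1galt1c1 without Pro 1, Pro 3, DN 1 or DN 3 (up to 0.115).

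Of 134 Rab, SNARE and exocytosis genes 6 rose and 1 fell. Stx3, a syntaxin of granule fusion, was at 63.2, 42.8 and 63.8 CPM in Pro-BMPs, against 11.9, 7.45 and 11.8 CPM in DN-GMPs, and rose by 2.45 (SE 0.24, adjusted p = 0.000135). Rab37, a secretory granule GTPase, was at 66.2, 51.1 and 58.3 CPM in Pro-BMPs, against 8.04, 20.4 and 2.63 CPM in DN-GMPs (adjusted p = 0.0114), with an uneven DN-GMP group. Vamp5, Vamp2, Rab38 and Rab44 rose by 0.74 to 1.24 on the log2 scale, and Myo5a, a vesicle motor, fell by 0.67 (adjusted p = 0.0462). ER translocation and folding genes had 2 higher and 0 lower of 97, close to the 2.00% of all genes, and a median log2 difference of 0.02. Edem3, which helps clear misfolded glycoproteins, was the larger of the 2, at 136, 77.2 and 102 CPM in Pro-BMPs, against 26.5, 15.6 and 33.8 CPM in DN-GMPs, a rise of 2.08 (SE 0.30, adjusted p = 0.00273). The call of Rab44 was lost with voom weights (adjusted p = 0.0549), and those of Rab37, Vamp2, Rab44 and Myo5a with the 2 populations fitted alone (adjusted p from 0.0623 to 0.11). Vamp2 lost its call without Pro 3 (adjusted p = 0.0508), Rab38 without any 1 library (up to 0.141), Rab44 without Pro 1, Pro 3, DN 1 or DN 3 (up to 0.112) and Myo5a without Pro 2, Pro 3, DN 1, DN 2 or DN 3 (up to 0.166).

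Secreted cytokines and growth factors had 6 of 48 members higher and 1 lower (3 and 1 with voom weights), with a median log2 difference of 0.43. Angpt1, the ligand of the TIE2 receptor, was at 101, 77.9 and 81.4 CPM in Pro-BMPs, against 28.9, 17.0 and 25.3 CPM in DN-GMPs, a rise of 1.90 (SE 0.19, adjusted p = 0.00018). Fgf3, a fibroblast growth factor, was at 25.6, 31.5 and 33.0 CPM in Pro-BMPs, against 1.06, 0.0206 and 2.43 CPM in DN-GMPs (adjusted p = 0.0168) and Csf1, the macrophage growth factor, at 43.6, 20.4 and 39.1 CPM in Pro-BMPs, against 5.94, 7.47 and 3.30 CPM in DN-GMPs (adjusted p = 0.00129). Il6 was at 5.15, 1.90 and 2.63 CPM in Pro-BMPs, against 0 reads in every DN-GMP library, at least 48.4-fold higher (adjusted p = 2.11e-06), and Il4, a cytokine that basophils release, at 0.356, 0.172 and 5.09 CPM in Pro-BMPs, against 0 reads in every DN-GMP library (adjusted p = 0.00593), with replicate 3 far above the others. Pf4, platelet factor 4, was the 1 that fell, to 2.41, 1.96 and 0.529 CPM in Pro-BMPs, against 14.4, 42.2 and 43.3 CPM in DN-GMPs (adjusted p = 0.0084). The calls of Csf1 and Il4 were lost with voom weights (adjusted p from 0.133 to 0.136), and those of Fgf3 and Il4 with the 2 populations fitted alone (adjusted p from 0.128 to 0.14). Fgf3 lost its call without Pro 1, Pro 2 or Pro 3 (adjusted p up to 0.0653).

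Amine and polyamine genes had 3 higher and 0 lower of 21, and lipid mediator enzymes 2 higher and 1 lower of 38. Hdc, which makes histamine, was at 728, 761 and 759 CPM in Pro-BMPs, against 216, 329 and 297 CPM in DN-GMPs, a rise of 1.44 (SE 0.13, adjusted p = 9.07e-05). Slc18a2, the vesicle transporter that loads histamine, was at 77.3, 65.6 and 100.4 CPM in Pro-BMPs, against 6.66, 3.58 and 5.31 CPM in DN-GMPs, a rise of 3.99 (SE 0.23, adjusted p = 1.99e-06). Alox5 (5-lipoxygenase) was at 74.7, 51.7 and 98.2 CPM in Pro-BMPs, against 15.1, 4.63 and 1.32 CPM in DN-GMPs (adjusted p = 0.0052), with DN-GMP replicate 1 the highest and replicate 3 the lowest of an uneven group. Its partner Alox5ap was at 113, 120.4 and 130.3 CPM in Pro-BMPs, against 123, 99.0 and 97.4 CPM in DN-GMPs, and was not called (adjusted p = 0.484). Lpcat2, which makes platelet-activating factor, rose by 1.79 (SE 0.18, adjusted p = 0.000146). Ltc4s and Hpgds, the terminal enzymes for cysteinyl leukotrienes and prostaglandin D2, had few reads. Ltc4s was at 0.733, 1.01 and 0.495 CPM in Pro-BMPs, against 0.0212, 0 and 0.894 CPM in DN-GMPs. Hpgds was at 0.0419, 0.776 and 0 CPM in Pro-BMPs, against 0 reads in every DN-GMP library, and neither was called (adjusted p = 0.269 for Ltc4s, 0.533 for Hpgds). Padi2, which converts arginine to citrulline in proteins and belongs to no list here, was at 104, 62.7 and 83.2 CPM in Pro-BMPs, against 15.8, 14.9 and 11.3 CPM in DN-GMPs (adjusted p = 1.34e-05). The call of Alox5 was lost with the 2 populations fitted alone (adjusted p = 0.0755).

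**Figure D3:**
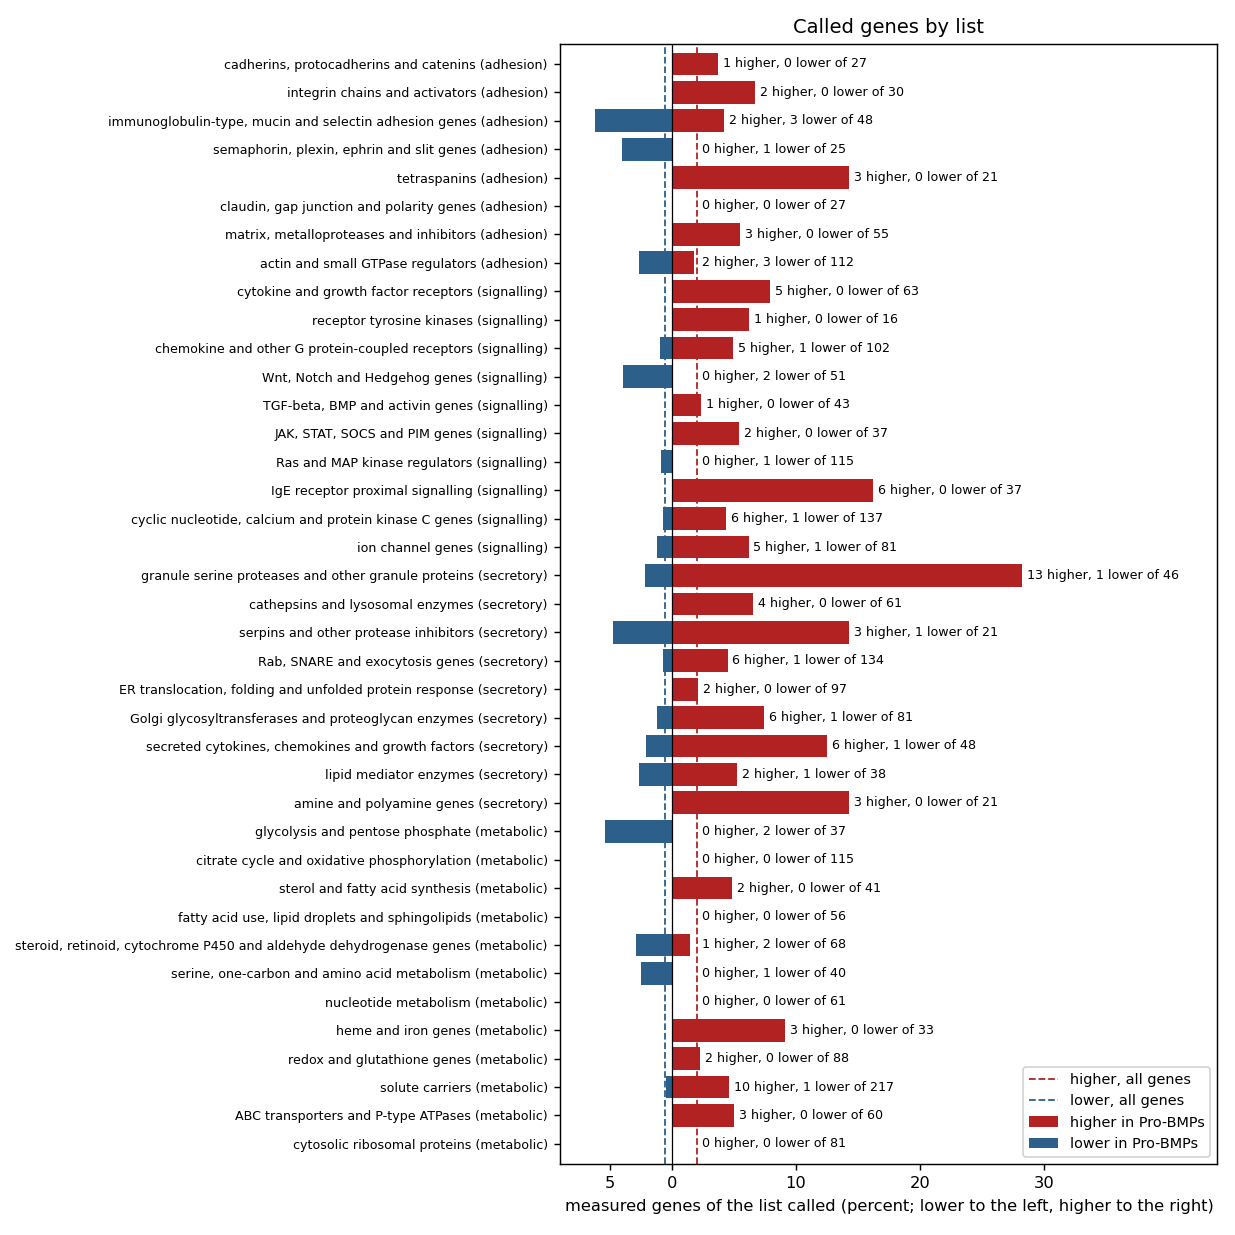
Share of measured genes called higher (bars to the right) and lower (bars to the left) in Pro-BMPs, in percent, for 39 lists of adhesion, signalling, secretory and metabolic genes, with dashed lines at 2.00% and 0.536% for all genes. Granule proteins have the longest bar, with 13 higher and 1 lower of 46, and 5 lists have no called gene.

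Core metabolism lists held 0 to 2 calls each, beside 2.00% higher and 0.536% lower of all genes. Over the 14560 genes, 1314 were higher and 703 lower at an unadjusted p under 0.05. Citrate cycle and oxidative phosphorylation genes had 0 higher and 0 lower of 115 with limma (0 and 0 with voom weights, 2 and 6 at an unadjusted p under 0.05), with a median log2 difference of -0.11. Cytosolic ribosomal proteins had 0 and 0 of 81 (0 and 0 with voom weights, 0 and 5 unadjusted) and a median of -0.18. Nucleotide metabolism had 0 and 0 of 61 (0 and 0 with voom weights, 9 and 5 unadjusted). Glycolysis and pentose phosphate genes had 0 higher and 2 lower of 37 (0 and 4 with voom weights), a share of falls of 5.41%, against 0.536% of all genes. The 2 were Hk3, a hexokinase of myeloid cells, at 348, 323 and 289 CPM in Pro-BMPs, against 503, 617 and 448 CPM in DN-GMPs, and Eno1 (enolase), at 509, 590.2 and 519.7 CPM in Pro-BMPs, against 664, 713 and 719 CPM in DN-GMPs. Hk3 fell by 0.70 (adjusted p = 0.00957) and Eno1 by 0.37 (adjusted p = 0.0363). Got2, a mitochondrial aspartate aminotransferase, fell by 0.50 (adjusted p = 0.0437), the 1 call among 40 amino acid genes. The calls of Hk3, Eno1 and Got2 were lost with the 2 populations fitted alone (adjusted p from 0.0603 to 0.0901). Hk3 lost its call without Pro 3 (adjusted p = 0.0508), Eno1 without Pro 1, Pro 3, DN 1, DN 2 or DN 3 (up to 0.14) and Got2 without any 1 library (up to 0.162).

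Sterol and fatty acid synthesis genes had 2 higher and 0 lower of 41 (1 and 0 with voom weights), and steroid, retinoid, cytochrome P450 and aldehyde dehydrogenase genes 1 higher (1.47%, under the 2.00% of all genes) and 2 lower of 68 (1 and 0 with voom weights). Cyp11a1, which cleaves the cholesterol side chain to start steroid synthesis, was at 14.1, 12.1 and 12.4 CPM in Pro-BMPs, against 0 reads in every DN-GMP library, at least 193-fold higher (adjusted p = 2.16e-09). Fads2, a fatty acid desaturase, was at 17.9, 23.6 and 26.3 CPM in Pro-BMPs, against 2.25, 5.27 and 4.20 CPM in DN-GMPs (log2 difference 2.60, SE 0.31, adjusted p = 0.000613). Acss2, which makes acetyl-CoA from acetate, was at 40.7, 20.1 and 35.6 CPM in Pro-BMPs, against 9.62, 9.06 and 6.83 CPM in DN-GMPs (log2 difference 1.87, SE 0.26, adjusted p = 0.00199). Apoe, a lipid carrier that belongs to no list here and was named after its values were seen, was at 394, 284 and 412 CPM in Pro-BMPs, against 58.9, 42.8 and 61.1 CPM in DN-GMPs (log2 difference 2.74, SE 0.20, adjusted p = 1.19e-05). Dhrs3, a retinal reductase, fell to 1.53, 0.409 and 2.72 CPM in Pro-BMPs, against 7.03, 14.1 and 18.5 CPM in DN-GMPs (adjusted p = 0.0405). Fatty acid use, lipid droplet and sphingolipid genes had 0 higher and 0 lower of 56 (0 and 0 with voom weights, 6 and 6 at an unadjusted p under 0.05). The calls of Acss2 and Dhrs3 were lost with voom weights (adjusted p from 0.0654 to 0.087), and that of Dhrs3 with the 2 populations fitted alone (adjusted p = 0.118). Dhrs3 lost its call without Pro 1, Pro 2, DN 2 or DN 3 (adjusted p up to 0.134).

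Of 217 solute carriers 10 rose and 1 fell (5 and 1 with voom weights). Slc7a8, an exchanger of neutral amino acids named after its values were seen, was at 74.8, 60.0 and 96.6 CPM in Pro-BMPs, against 11.2, 11.3 and 5.12 CPM in DN-GMPs (log2 difference 3.13, adjusted p = 0.000101). Slc22a3, a polyspecific organic cation transporter that takes up histamine, was at 85.8, 79.1 and 79.3 CPM in Pro-BMPs, against 8.66, 0.823 and 17.3 CPM in DN-GMPs (adjusted p = 0.0223), with DN-GMP replicate 2 near 0 and replicate 3 the highest of that group. Slc40a1 (ferroportin, the iron exporter) was at 44.9, 47.6 and 49.4 CPM in Pro-BMPs, against 15.9, 21.1 and 21.3 CPM in DN-GMPs (adjusted p = 0.0179), and Tfr2, the second transferrin receptor, at 89.1, 97.9 and 90.0 CPM in Pro-BMPs, against 7.90, 53.8 and 19.1 CPM in DN-GMPs (adjusted p = 0.0459). Both belong to the 3 of 33 heme and iron genes that rose (1 with voom weights). Slc38a1, a glutamine carrier, fell by 0.53 (adjusted p = 0.0346). Slc22a3, Il17rb, Hk3 and Acss2 overlap Plg, Actr8, Unc5a and Gss on the opposite strand. Other named genes that overlap a listed gene there are Adam8, Alox5ap, Bcl2, Cd34, Cd9, Cebpa, Csf1r, Ctnna1, Emb, Galnt6, Itga4, Lpcat2, Ltc4s, Lyn, Mpo, Ms4a6c, Padi2 and Prtn3. The library kit does not mark strand, so reads from the overlaps cannot be told apart. The call of Slc40a1 was lost with voom weights (adjusted p = 0.0637), and those of Slc22a3, Tfr2 and Slc38a1 with the 2 populations fitted alone (adjusted p from 0.0829 to 0.185). Slc22a3 lost its call without Pro 1, Pro 2 or Pro 3 (adjusted p up to 0.0755), Slc40a1 without Pro 1, Pro 2, Pro 3 or DN 1 (up to 0.0722), Tfr2 without Pro 1, Pro 2, Pro 3, DN 1 or DN 3 (up to 0.127) and Slc38a1 without any 1 library (up to 0.122).

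Genes with few reads were examined apart, as those with a mean under 1 CPM over the 6 libraries. They numbered 2721 of 14560 (18.7%), and 40 of them rose (1.47%) and 4 fell (0.147%). The share of rises was 1.92% among 3492 genes of 1 to 10 CPM and 2.20% among 8347 genes of 10 CPM and over. The spread between libraries of 1 population changed with the level: the median SD of log2 values in Pro-BMPs was 1.52 under 1 CPM, 0.608 from 1 to 10 CPM and 0.207 above, and in DN-GMPs 1.35, 0.787 and 0.265. A gene could have 0 reads in 1 or 2 libraries of a population and at least 1 CPM in another, which was so for 697 genes in Pro-BMPs and 820 in DN-GMPs, with values of up to 18.6 CPM in Pro-BMPs and 22.1 CPM in DN-GMPs. In Pro-BMPs 0 of the 697 were called, and in DN-GMPs 4 of the 820 were, all higher (Il1rl1, Rnase6, Gna14 and Rgs1).

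Of the 40 low genes that rose, Gpc4 (glypican 4), a heparan sulfate proteoglycan, was at 1.76, 2.22 and 1.20 CPM in Pro-BMPs, against 0.0212, 0 and 0 CPM in DN-GMPs. Gstp3, a glutathione transferase, was at 1.95, 1.31 and 0.564 CPM in Pro-BMPs, against 0 reads in every DN-GMP library. Both lay under 2.5 CPM in every Pro-BMP library and had at most 1 read in a DN-GMP library (adjusted p = 2.96e-05 for Gpc4, 9.59e-05 for Gstp3). Clec1b, a receptor of platelets, was the low gene with the largest fall, at 0 reads in every Pro-BMP library, against 1.04, 0.782 and 0.745 CPM in DN-GMPs (adjusted p = 0.00883). H2-Aa, an MHC class II chain named after its values were seen, was at 0.482, 1.53 and 1.40 CPM in Pro-BMPs, against 0 reads in every DN-GMP library (adjusted p = 0.00916), while its partner gene Cd74 was at 0.650, 0.690 and 0 CPM in Pro-BMPs, against 0, 1.73 and 0.919 CPM in DN-GMPs, and was not called (adjusted p = 0.933). With voom weights 7 low genes were called higher and 1 lower. The call of Gpc4 was lost with voom weights (adjusted p = 0.0759).

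In all Pro-BMP libraries 217 genes had 0 reads, and in all DN-GMP libraries 418 did, both including 96 with 0 in all 6. Over 3 reads in every library of the other population were found for 14 genes at 0 in Pro-BMPs, of which 8 were called, and for 75 genes at 0 in DN-GMPs, of which 46 were called. With at least 1 CPM in each of those libraries, 5 genes were at 0 in Pro-BMPs and 29 in DN-GMPs. The 96 genes at 0 in all 6 show that a listed gene need not have reads in these libraries. Scaled library sizes were 46400402 to 58553590 reads in Pro-BMPs, against 40263971 to 48575743 in DN-GMPs. Whether the choice of listed genes or the depth shaped the difference between these counts was not tested. Rec8, a cohesin subunit of meiosis, was at 5.15, 4.01 and 4.12 CPM in Pro-BMPs, against 0 reads in every DN-GMP library, at least 66.4-fold higher (adjusted p = 1.08e-06). On the other side Tmem268, a membrane protein, had 0 reads in every Pro-BMP library, against 10.4, 17.9 and 22.8 CPM in DN-GMPs, at least 286-fold lower (adjusted p = 0.00311). Arhgap12, a GTPase-activating protein, had 0 reads in every Pro-BMP library, against 4.92, 6.18 and 4.87 CPM in DN-GMPs (adjusted p = 0.0102), and Slamf6, a lymphoid adhesion receptor, 0 reads in every Pro-BMP library, against 3.44, 0.618 and 4.72 CPM in DN-GMPs (adjusted p = 0.00459).

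**Figure D4:**
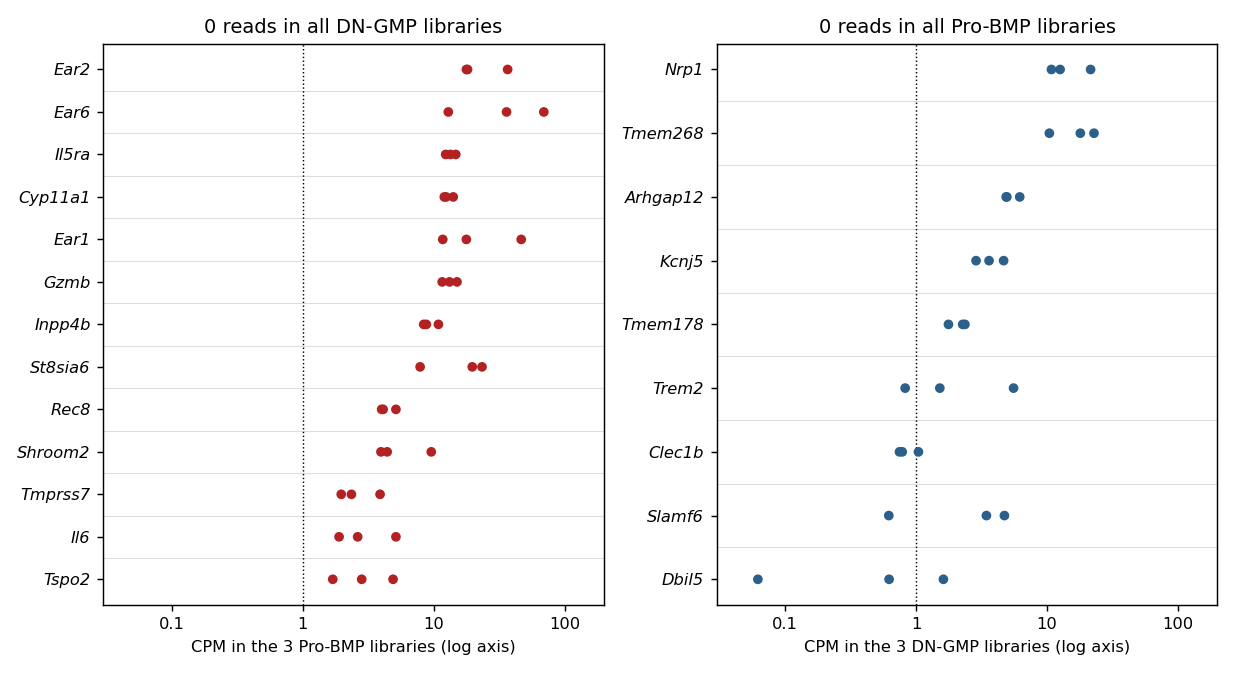
Level in CPM (horizontal log axes, dotted line at 1 CPM) of 13 called genes with 0 reads in all DN-GMP libraries, in the 3 Pro-BMP libraries (left), and of 9 called genes with 0 reads in all Pro-BMP libraries, in the 3 DN-GMP libraries (right). Il5ra, Cyp11a1 and Gzmb are tight near 10 to 15 CPM, while Ear6 and Ear1 spread widely, and Nrp1 and Tmem268 are the highest on the right.

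Irf8 was 1 of 28 genes that the fit over 12 libraries did not call but that were called both with voom weights and with the 2 populations fitted alone. Of these, 23 were lower and 5 higher in Pro-BMPs. Their median SD of log2 values was 0.208 in Pro-BMPs and 0.222 in DN-GMPs, and it was 0.774 in Pre-BMPs and 1.50 in basophils, against 0.319, 0.391, 0.316 and 0.351 over all genes. Because the genes were picked by a small spread in the 2 populations and a larger one over all libraries, these SDs are a description only, and single genes depart from the medians: Ttll9 had an SD of 1.44 in Pro-BMPs, and Myb 0.0703 in Pre-BMPs and 0.244 in basophils. For Irf8 the adjusted p was 2.8e-05 with voom weights and 0.00207 with the 2 populations alone, where its SE was 0.29, against 1.41 in the fit over 12 libraries. With 5 reads added to every value it was called as well.

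Of the 23 lower genes 7 are given here, chosen after their values were seen. Ly86, a partner of a Toll-like receptor homologue, was at 7.21, 13.1 and 9.34 CPM in Pro-BMPs, against 99.3, 80.5 and 93.8 CPM in DN-GMPs. Csf1r, the macrophage growth factor receptor, was at 25.0, 34.2 and 26.5 CPM in Pro-BMPs, against 179, 199 and 108 CPM in DN-GMPs, and Flt3, the receptor that drives dendritic cell progenitors, at 2.72, 4.81 and 2.39 CPM in Pro-BMPs, against 37.4, 32.1 and 24.6 CPM in DN-GMPs. In none of the 3 do the groups overlap. Of the chains of the interleukin 6 receptor, Il6ra was at 4.44, 6.29 and 4.42 CPM in Pro-BMPs, against 26.3, 30.1 and 35.4 CPM in DN-GMPs. Il6st was at 4.63, 12.4 and 8.90 CPM in Pro-BMPs, against 48.2, 48.4 and 28.4 CPM in DN-GMPs. Tifab was at 89.4, 71.3 and 70.0 CPM in Pro-BMPs, against 257, 318 and 286 CPM in DN-GMPs, and Mef2c, a transcription factor, at 29.1, 25.3 and 32.4 CPM in Pro-BMPs, against 86.6, 85.6 and 83.0 CPM in DN-GMPs. With the 2 populations alone the adjusted p ranged over these 7 genes from 0.00207 to 0.0491, and with voom weights from 0.000127 to 0.0187. Met, the receptor of hepatocyte growth factor, was at 1.59, 9.31 and 0.393 CPM in Pro-BMPs, against 29.6, 25.6 and 23.1 CPM in DN-GMPs, and was called by none of the 3 fits (adjusted p = 0.437, with voom weights 0.115, and with the 2 populations alone 0.174). Among the 5 higher ones, Cebpe, a factor of granulocyte maturation, was at 90.5, 69.3 and 77.0 CPM in Pro-BMPs, against 23.6, 27.2 and 27.7 CPM in DN-GMPs, and then at 11.5, 9.78 and 15.6 CPM in Pre-BMPs and 0.139, 0 and 0.577 CPM in basophils. Smim5 was at 30.8, 28.7 and 29.3 CPM in Pro-BMPs, against 2.14, 2.96 and 4.47 CPM in DN-GMPs, and Grb10, an adaptor of growth factor receptors, at 59.1, 54.1 and 45.9 CPM in Pro-BMPs, against 3.88, 12.8 and 12.3 CPM in DN-GMPs.

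**Figure D5:**
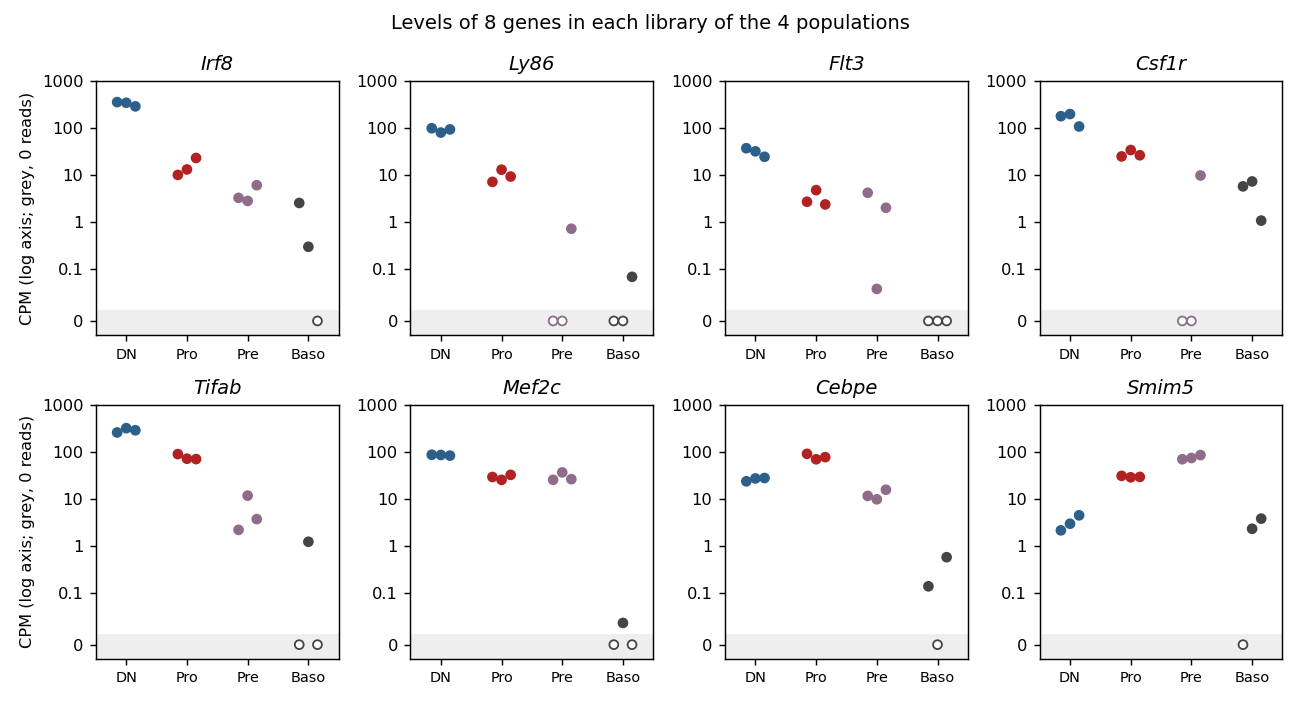
Level in CPM (vertical log axes, open points in the grey band at 0 reads) of 8 genes in each library of DN-GMPs (DN), Pro-BMPs (Pro), Pre-BMPs (Pre) and basophils (Baso). Irf8, Ly86, Flt3, Csf1r, Tifab and Mef2c lie lower in all Pro-BMP libraries than in all DN-GMP libraries and have 0 reads in at least 1 Pre-BMP or basophil library, Cebpe is highest in Pro-BMPs, and Smim5 is highest in Pre-BMPs.

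Markers of other cells moved with part of these results. Their lists were chosen with earlier results of these data known, so the counts are a description only. Over all genes 2.00% were higher and 0.536% lower. The gates would remove CD11b+ or Gr1+ neutrophils and monocytes, Ter119+ erythroid cells, CD3+ T cells and B220+ B cells. The 10 eosinophil genes summed to 1915 to 3072 CPM in Pro-BMPs, against 26.3 to 48.3 CPM in DN-GMPs, with 8 higher and 0 lower (4 and 0 with voom weights), while Ccr3, the eosinophil chemokine receptor, was at 0, 1.64 and 0 CPM in Pro-BMPs, against 0, 0.0206 and 0 CPM in DN-GMPs. The 14 basophil genes had 12 higher and 0 lower (7 and 0 with voom weights) and summed to 1949.6 to 2378 CPM in Pro-BMPs, against 381 to 459 CPM in DN-GMPs. The 13 erythroid genes had 3 higher and 0 lower (Gata1, Klf1 and Tspo2; 2 and 0 with voom weights) and summed to 135 to 160.0 CPM in Pro-BMPs, against 38.9 to 74.2 CPM in DN-GMPs, with the hemoglobin gene Hba-a1 at 1.72, 0.517 and 0.478 CPM in Pro-BMPs, against 0.170, 0.0618 and 0 CPM in DN-GMPs, and Hbb-b1 at 3.92, 1.85 and 1.60 CPM in Pro-BMPs, against 0.382, 0.268 and 0 CPM in DN-GMPs. The 11 megakaryocyte and platelet genes had 1 higher (Itga2b) and 2 lower (Pf4 and Clec1b), and the 11 monocyte and dendritic cell genes 1 higher (Id2) and 3 lower (Ccr2, F13a1 and Ms4a6c; 0 and 8 with voom weights), with sums of 112 to 168 CPM in Pro-BMPs, against 1365 to 1650.5 CPM in DN-GMPs. F13a1, a clotting factor chain of monocytes, was at 16.8, 31.6 and 29.2 CPM in Pro-BMPs, against 452, 744 and 684 CPM in DN-GMPs (adjusted p = 0.000123). The 13 mature neutrophil genes had 0 and 0 called with limma (0 higher and 1 lower with voom weights, 4 and 1 at an unadjusted p under 0.05), and summed to 89.3 to 151 CPM in Pro-BMPs, against 113 to 124 CPM in DN-GMPs. Their gene Mmp9 had 0 reads in all 6 libraries. Of 4 mast cell genes, 2 of them under 1 CPM, 0 were called (0 with voom weights, 1 higher unadjusted), and the tryptase Tpsb2 had 0 reads in all 6. Cpa3, Ms4a2 and Hdc, which mast cells share with basophils and which rose, are not in this list. The 4 lymphoid genes and 3 stromal and endothelial genes had 0 calls (0 with voom weights, 1 higher in each list unadjusted). Of 14 dissociation stress genes 1, Ier3, was higher (adjusted p = 0.0302), and 0 with voom weights. The part of such cells in the results above was not tested.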

How the data were processed

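RNA was measured in 12 libraries of sorted mouse bone marrow cells, made with the SmartSeq v4 and Nextera XT kits, which do not mark strand. Trimmomatic, STAR, HTSeq and deepTools are named in the submitters' processing notes, and the genome build is not given in the sources used here. The authors deposited log2 values per gene, which were the log2 of reads plus 0.5 per 1000000 of a scaled library size: reads came back as whole numbers within 0.001 for 100% of values. The 3 rows that name no gene were left out. In the 6 libraries they held 6.65% to 8.42% (no feature), 3.98% to 4.14% (ambiguous) and 9.87% to 12.1% (not unique) of all reads in the table.

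The deposited log2 values were fitted with limma 3.58.1 in R 4.3.3 (trend across the mean, 1 mean for each of 4 populations, no other term), two-sided, with Benjamini-Hochberg adjustment over 14560 genes and a threshold of 0.05. The design had assumed normalized counts, and the unit found was log2. Alternatives were quantile normalization, scaling by the total on listed genes, voom weights, 5 reads added, a filter of 1 CPM in 3 of 6 libraries, the 2 populations fitted alone, a replicate block, robust moderation of the variance, and each of the 6 libraries left out. The fit was also run on simulated counts in which all populations followed the same rule for the spread. That run cannot show how the fit behaves where the spread differs between populations. Exact permutation of 3 against 3 libraries cannot go below p = 0.1, so no single-gene permutation test is given.

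Members and gene lists were chosen with earlier results of these data known. The rule for named genes covered the 5 markers, up to 6 called genes per direction in each adhesion, signalling, secretory and metabolic list, the 10 called genes with the largest difference per direction at 5 CPM or more in the higher population, the 10 largest called per direction under 1 CPM, 10 per direction at 0 reads in 1 population, and called genes of the other-cell lists. Genes with no call other than the markers were chosen after their values were seen, as were Apoe, Bcl2, H2-Aa, Padi2, Perp, Shroom2 and Slc7a8. Coordinates and overlaps come from GENCODE M21 (GRCm38), and promoters from RefSeq (GRCm38.p6). A few genes are not reported here.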

Additional observations from a re-analysis of the deposited data

How the results depend on the processing

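With voom weights 155 genes were higher and 106 lower in Pro-BMPs, so 59.4% of the calls were higher, against 78.9% in the fit as reported, and 204 calls were shared. With the 2 populations fitted alone 153 were higher and 75 lower (67.1% higher), and 170 calls were shared. Counts of genes under 1 CPM varied with the setting: 25 were higher and 8 lower with quantile normalization, 7 and 1 with voom weights, and 3 and 1 with a filter of 1 CPM in 3 of 6 libraries, which leaves few such genes, while 25 were higher with 5 reads added. The causes were not tested. Leaving out 1 library gave 180 to 397 genes higher and 49 to 84 lower, and under 1 CPM 29 to 56 higher and 3 to 9 lower. The lowest counts came without Pro-BMP replicate 3 (180 higher and 51 lower), Pro-BMP replicate 1 (51 lower) and DN-GMP replicate 3 (49 lower). Of 170 named genes that were called, none changed sign under any alternative that tested it (146 were tested with the filter of 1 CPM), and 22 to 55 lost their call with 1 library left out, 69 with voom weights and 70 with the 2 populations alone. Quantile normalization and scaling by the total on listed genes moved the median difference of all genes to -0.03 and 0.05.

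Same-numbered libraries were not more alike than others. Deviations from the population means correlated at 0.0020, -0.1138 and -0.0738 in the same-numbered pairs over 8128 genes. Pairs with different numbers ran from -0.0286 to 0.1020. With 3 libraries in each population these values cannot show whether a number stands for 1 mouse. With the replicate block 249 genes were higher and 63 lower, 298 of 312 calls were shared with the fit as reported, and 20 of 170 named genes lost their call.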
